A study of Mus musculus with 12 samples.

Results

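The genes described here carry pyruvate into the mitochondrion, turn the tricarboxylic acid cycle and move its reducing equivalents and intermediates across the inner membrane by way of the malate shuttle. They were chosen by name, as a list of 32 gene symbols, and all 32 were found among the 24421 genes of each count file. All 32 also passed the filter on low counts, which left 12252 genes for testing. The list holds 8 genes of pyruvate entry, 12 genes of the cycle, 7 genes of the malate-aspartate shuttle and its carriers, and 5 malic enzymes and cytosolic forms of cycle enzymes.

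Pyruvate enters the matrix through a carrier made of Mpc1 and Mpc2, and the pyruvate dehydrogenase complex turns it into acetyl-CoA. Citrate synthase joins acetyl-CoA to oxaloacetate, and the cycle oxidises the product back to oxaloacetate while NAD+ is reduced. The inner membrane does not let NADH pass, so the malate-aspartate shuttle carries the electrons of cytosolic NADH inward, with cytosolic and mitochondrial malate dehydrogenase and aspartate aminotransferase on either side and exchange carriers between them. The heart is rich in mitochondria, and around birth it shifts its fuel from glucose and lactate toward fatty acids, which also feed acetyl-CoA into this cycle.

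The data are RNA-seq libraries of cardiomyocytes from mouse hearts on postnatal day 1, on the CD1 background. Glut1 transgenic hearts carried aMHC-hGLUT1tg, a human GLUT1 glucose transporter driven by the cardiomyocyte promoter of alpha myosin heavy chain, together with aMHC-Cre tg and the R26+/YFP reporter; the labels give the controls as wild type (WT), and the study describes them as carrying the same Cre and reporter. Live cells were sorted on YFP and Mitotracker, a mitochondrial dye, into a population with high Mitotracker signal, which the study names Tnnt2low, and one with low signal, named Tnnt2high. There were 4 libraries of each population from Glut1 transgenic hearts, where each heart gave both populations, and 2 of each from WT, whose labels share heart number 9 and may stem from the same animal. The sort, and not a protein stain of Tnnt2, set the populations of these libraries. The deposited records speak of whole heart tissue as the source of RNA, but the study's account of sorted cells was used here.

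Reads in genes numbered 4065306 to 9815069 per library. Tnnt2, the cardiac troponin T for which the populations are named, lay at 12661 to 13976 CPM (reads of a gene per 1000000 reads of the library, scaled between libraries by TMM) in Glut1 transgenic Tnnt2low libraries and at 16086 to 20830 CPM in Tnnt2high libraries, and at 15741 to 16731 CPM against 16254 to 17201 CPM in WT. Slc2a1, the mouse gene of Glut1, had 33.5 to 92.5 CPM in Glut1 transgenic and 13.3 to 28.9 CPM in WT libraries, and reads of the human transgene cannot be told apart from its own. The 8 cardiomyocyte markers summed to 108421 to 126208 CPM in Glut1 transgenic Tnnt2low and 128103 to 134594 CPM in Glut1 transgenic Tnnt2high libraries, without overlap, with 4 of the 8 called lower and 1 higher. They summed to 119175 and 125448 CPM in WT Tnnt2low and to 125223 and 137265 CPM in WT Tnnt2high libraries, and none was at 0 in any library. The 7 fibroblast and matrix markers summed to 57.7 to 149.0 CPM in Glut1 transgenic Tnnt2low and 236.8 to 1040 CPM in Glut1 transgenic Tnnt2high libraries, where 6 of the 7 were called lower in Tnnt2low cells. They summed to 130.4 and 262.5 CPM in WT Tnnt2low and to 122.0 and 553.5 CPM in WT Tnnt2high libraries. The 6 endothelial markers summed to 7.46 to 70.6 CPM against 27.04 to 205.1 CPM in the Glut1 transgenic populations, with 0 called and a median log2 fold change of -2.23, and to 12.7 and 71.0 against 14.1 and 288.4 CPM in WT. The 6 smooth muscle and pericyte markers summed to 907.5 to 1128 against 1046 to 1612 CPM in the Glut1 transgenic populations, with 1 called lower and 1 higher, and to 924.0 and 1087 against 1072 and 1223 CPM in WT. Among the 6 erythroid markers 4 globin genes were at 0 in all libraries. The part of these cell types in the levels of the 32 genes was not tested.

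The 32 genes together took 1.52% to 2.24% of the scaled reads of a library. Their summed level was 15371, 17146, 16344 and 16478 CPM in the 4 Glut1 transgenic Tnnt2low libraries and 22396, 21163, 19089 and 19767 CPM in the Tnnt2high libraries of the same hearts, in the order of the replicates. All 4 Tnnt2low libraries lay below all 4 Tnnt2high libraries. In WT hearts the sums were 15150 and 18587 CPM in Tnnt2low cells and 20243 and 18587 CPM in Tnnt2high cells. The first WT pair thus had a lower sum in Tnnt2low cells, whereas the second pair gave the same sum to the nearest CPM in both populations. In such bulk samples, fewer cells of a type and less RNA per cell cannot be told apart.

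A property of the libraries moved with the sum. For each read in a gene, 0.886 to 1.07 reads fell outside all exons in Glut1 transgenic Tnnt2low libraries and 2.26 to 2.63 in Glut1 transgenic Tnnt2high libraries. In WT the ratio was 1.13 and 1.50 in Tnnt2low cells and 1.83 and 1.51 in Tnnt2high cells, so that the second WT pair was matched in this ratio as well. The part of this ratio in the levels of the 32 genes was not tested, and the population and the ratio cannot be told apart in the Glut1 transgenic libraries, which do not overlap in it.

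**Figure D1:**
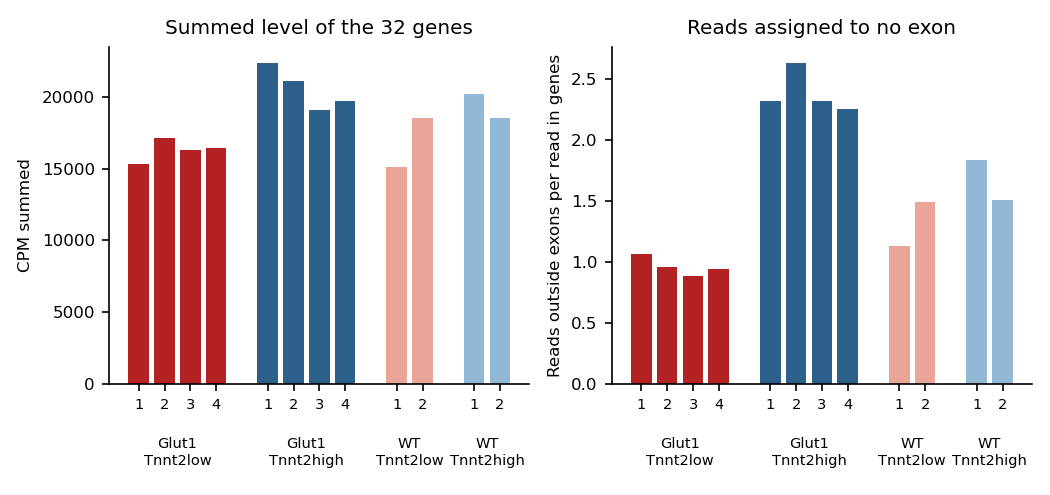
Summed level of the 32 genes in CPM (left) and reads assigned to no exon for each read in a gene (right), 1 bar per library, numbered by replicate within the 4 groups. All Glut1 transgenic Tnnt2low bars (15371 to 17146 CPM and 0.886 to 1.07) lie below the Glut1 transgenic Tnnt2high bars in both panels, and the second WT pair has equal bars in the left panel (18587 CPM) and nearly equal ones in the right (1.50 and 1.51).

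The level of the genes among themselves is given per length, as RPKM, which is CPM per kilobase of exon, averaged over the 12 libraries. Idh2, the mitochondrial NADP-dependent isocitrate dehydrogenase, was the highest at 1950 RPKM (1506 to 2516) and lay above every other gene of the list in all 12 libraries. Mdh2 and Mdh1, the mitochondrial and cytosolic malate dehydrogenases, followed at 1114 and 992 RPKM, and Mdh2 was the higher in 10 of the 12 libraries. Idh2, Mdh1 and Mdh2 together made up 35.0% to 43.1% of the summed CPM of the list.

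A middle range ran from Idh3b at 455 RPKM to Slc25a11, the carrier that exchanges malate for 2-oxoglutarate, at 143 RPKM. It held in this order Idh3b, Cs, Suclg1, Got2, Idh3a, Pdha1, Ogdh, Pdhb, Idh3g, Dlst, Dld, Mpc2, Sucla2, Fh1, Got1 and Slc25a11. Neighbours from Idh3b down to Got1 traded places between libraries, each being the higher in 5 to 10 of the 12, so this order does not separate them. Got1 lay above Slc25a11, and Slc25a11 above Dlat, in all 12 libraries. Dlat, the acetyltransferase core of pyruvate dehydrogenase, had 99.4 RPKM (87.7 to 114.5).

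Below it, Slc25a12 and Slc25a13, the aspartate-glutamate carriers of the shuttle, had 39.0 and 36.3 RPKM. Pdhx, which anchors Dld in the pyruvate dehydrogenase complex, lay between them at 38.9 RPKM. The cytosolic forms were low, with Idh1 at 22.0 and Aco1 at 12.9 RPKM. Suclg2, the GTP-forming beta subunit of succinyl-CoA ligase, had 18.5 RPKM, while Sucla2, its ATP-forming counterpart, had 197.6 RPKM. The malic enzymes were low as well, at 12.3 RPKM for Me1, 4.80 for Me3 and 3.20 for Me2. Slc25a1, the citrate carrier, and Pcx, pyruvate carboxylase, closed the order at 2.24 and 1.80 RPKM. Their counts reached down to 4 and 15 reads in a library, too few for a precise fold change.

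Mpc1 varied more between libraries than any other gene of the list. It had 81.3, 35.9, 90.1 and 107 CPM in Glut1 transgenic Tnnt2low libraries and 197, 65.2, 8.18 and 86.8 CPM in the matching Tnnt2high libraries. In WT it had 4.17 and 104 CPM in Tnnt2low and 172 and 106 CPM in Tnnt2high cells. The low values came from 1 library in each genotype and from different populations, and the highest library exceeded the lowest 47.1 times. Its partner Mpc2 varied 3.59 times over the same libraries. Of the 30-base words of Mpc1 exons, 12.7% also occurred in transcripts of other places, among them Mpc1-ps, so that its count is uncertain. The same held at 5% or more for Pdhb (18.5%), Cs (6.33%), Suclg2 (21.0%), Me1 (37.4%) and Got2 (27.5%). None of the 9 genes called below was among them. Reads of genes that overlap on the other strand cannot be separated where counting did not use strand, which the sources used here do not state. Overlapping genes on the other strand shared 7.42% of the words of Slc25a11 (with Rnf167), 14.1% of Pdha1 (with Map3k15) and 18.4% of Mpc1.

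The comparison of Tnnt2low with Tnnt2high cells asks how the cell populations of a neonatal heart differ in their transcripts, and within Glut1 transgenic hearts 9 of the 32 genes were lower in Tnnt2low cells and 0 were higher (edgeR quasi-likelihood test, Benjamini-Hochberg adjusted p under 0.05 over 12252 genes). The 9 genes were Mpc2 of pyruvate entry, the cycle genes Idh2, Idh3b, Idh3g, Suclg1, Fh1 and Mdh2, and Mdh1 and Slc25a11 of the shuttle. They make up 28.1% of the list, while 8.33% of all tested genes were called lower and 8.42% higher. With DESeq2 12 were lower, beside 11.5% of the genes to which it gave an adjusted p, the additional genes being Dld, Pdhb and Slc25a12. The median log2 fold change was -0.31 over the 32 genes and -0.01 over all tested genes, and 24 of the 32 fold changes were negative. The libraries of 13 of the 32 genes did not overlap between the populations, all 13 lower in Tnnt2low cells (40.6%, beside 10.9% of all tested genes).

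**Figure D2:**
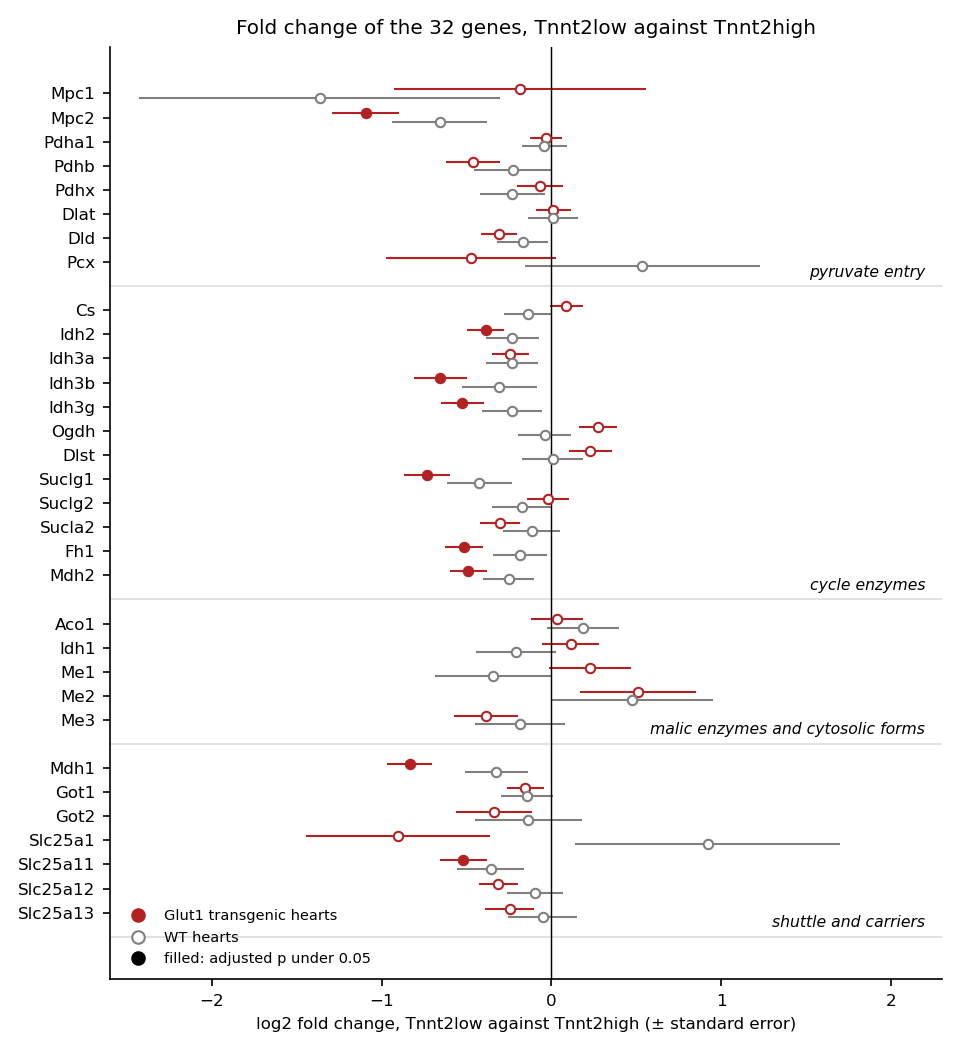
Fitted log2 fold change of Tnnt2low against Tnnt2high cells with its standard error for the 32 genes, ordered by role, in Glut1 transgenic (red, 4 hearts) and WT hearts (grey, 2 pairs), with filled points for an adjusted p under 0.05. The 9 filled points are all red and lie between -1.09 and -0.39, and no WT point is filled.

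Of the 8 genes of pyruvate entry, Mpc2 was the only one called. Mpc2, the subunit that pairs with Mpc1 in the pyruvate carrier, had 109, 153, 143 and 152 CPM in Tnnt2low and 366, 307, 255 and 262 CPM in Tnnt2high libraries of Glut1 transgenic hearts. The groups did not overlap, and the log2 fold change was -1.09 ± 0.20 (SE, adjusted p = 0.0034, edgeR), the largest of the 9. In the lipoyl-dependent pyruvate dehydrogenase complex the main edgeR fit called no subunit, while DESeq2 called Pdhb and Dld lower. Without the filter on low counts, and with the robust fit, edgeR also called Pdhb of this complex lower. Its E1 subunits are Pdha1, at a log2 fold change of -0.03, and Pdhb, at -0.46 (adjusted p = 0.0619, edgeR). The remaining subunits had -0.07 for Pdhx, 0.01 for Dlat and -0.31 for Dld, the dehydrogenase shared with the 2-oxoglutarate complex (adjusted p = 0.0607, edgeR). The libraries of Dld did not overlap, which makes it lower in Tnnt2low cells in all 4 hearts. Pcx, which makes oxaloacetate from pyruvate, had 3.45 to 9.56 CPM in Tnnt2low and 3.56 to 17.9 CPM in Tnnt2high libraries and was not called.

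Of the 12 genes of the cycle, 6 were lower. NAD-dependent isocitrate dehydrogenase is built of a catalytic alpha subunit (Idh3a) and the beta and gamma subunits Idh3b and Idh3g. Idh3b had 514, 631, 611 and 624 CPM in Tnnt2low and 1191, 939, 819 and 799 CPM in Tnnt2high libraries, a log2 fold change of -0.65 ± 0.16 (SE, adjusted p = 0.0121, edgeR). Idh3g had 251, 323, 304 and 278 CPM against 461, 426, 380 and 396 CPM, a log2 fold change of -0.52 ± 0.13 (SE, adjusted p = 0.0115, edgeR). Both were separated without overlap. Idh3a was not called, at 709 to 866 CPM against 880 to 1019 CPM and a log2 fold change of -0.24 (adjusted p = 0.141, edgeR). Idh2 had 2816 to 3120 CPM in Tnnt2low and 3503 to 4391 CPM in Tnnt2high libraries and fell by 0.39 on the log2 scale (adjusted p = 0.0257, edgeR).

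The later steps of the cycle also held calls. Suclg1, the alpha subunit common to both succinyl-CoA ligases, had 377, 442, 447 and 372 CPM in Tnnt2low and 798, 710, 628 and 586 CPM in Tnnt2high libraries. Every Tnnt2low library lay below every Tnnt2high library, and the log2 fold change was -0.73 ± 0.13 (SE, adjusted p = 0.0035, edgeR). Its beta subunits were not called, Sucla2 at -0.30 (adjusted p = 0.0951, edgeR) and Suclg2 at -0.02. Fh1, the fumarase that makes malate, had 392, 450, 447 and 464 CPM against 698, 621, 574 and 609 CPM, a log2 fold change of -0.51 ± 0.11 (SE, adjusted p = 0.0075, edgeR). Mdh2, which closes the cycle by oxidising malate, had 1236, 1404, 1379 and 1448 CPM against 2076, 2011, 1798 and 1785 CPM, a log2 fold change of -0.49 ± 0.11 (SE, adjusted p = 0.0075, edgeR). Neither gene overlapped between the populations.

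The first step of the cycle, and Ogdh and Dlst of the 2-oxoglutarate dehydrogenase complex, had positive fold changes and no calls. Dld, the subunit this complex shares with pyruvate dehydrogenase, had a negative one, as given above. Cs, citrate synthase, had 1037 to 1218 CPM in Tnnt2low and 952 to 1139 CPM in Tnnt2high libraries and a log2 fold change of 0.09 ± 0.10 (SE). Ogdh, the E1 subunit of the 2-oxoglutarate complex, had 1193, 1346, 1304 and 1381 CPM in Tnnt2low and 989, 894, 1172 and 1261 CPM in Tnnt2high libraries. It was the higher in Tnnt2low cells of all 4 hearts, with overlapping groups, at a log2 fold change of 0.28 ± 0.11 (SE, adjusted p = 0.103, edgeR). Without Tnnt2high replicate 4 it passed the threshold. Dlst, the succinyltransferase core of that complex, was also higher in all 4 hearts at a log2 fold change of 0.23 ± 0.13 (SE, adjusted p = 0.241, edgeR). Ogdh has 4449 bases of exon, and all tested genes above 4000 bases had a median log2 fold change of 0.31. With heart as a term and exon length and GC content offset, Ogdh had 0.11 ± 0.09 and Dlst 0.30 ± 0.10 (SE), neither of them called.

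Of the 7 shuttle and carrier genes, 2 were lower and all 7 had negative fold changes. Mdh1, which reduces oxaloacetate with cytosolic NADH, had 1427, 1620, 1551 and 1601 CPM in Tnnt2low and 3134, 3106, 2372 and 2450 CPM in Tnnt2high libraries. The groups were far apart, and its log2 fold change of -0.84 ± 0.13 had the smallest p of the list (SE, adjusted p = 0.0020, edgeR). Slc25a11 had 168, 226, 214 and 215 CPM against 301, 325, 254 and 300 CPM, a log2 fold change of -0.52 ± 0.14 (SE, adjusted p = 0.0214, edgeR). Slc25a12 had 205 to 252 CPM against 261 to 317 CPM, without overlap, but was not called (log2 fold change -0.31, adjusted p = 0.0794, edgeR). Slc25a13 and Got1, the cytosolic aspartate aminotransferase, had log2 fold changes of -0.25 and -0.15 and were not called. Slc25a1 had 1.41 to 5.46 CPM against 3.72 to 7.83 CPM with a wide error (-0.90 ± 0.54, SE).

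Got2, the mitochondrial aminotransferase, rested on a library that stood apart. It had 840, 920, 801 and 323 CPM in Tnnt2low and 861, 951, 895 and 935 CPM in Tnnt2high libraries of Glut1 transgenic hearts. The log2 difference between the populations was -0.04, -0.05 and -0.16 in the first 3 hearts and -1.53 in the heart of replicate 4. In WT Got2 had 873 to 1050 CPM. None of the 5 malic enzymes and cytosolic forms was called, and 4 of them had positive fold changes. These were Me2 (0.51 ± 0.34, SE), Me1 (0.23), Idh1 (0.11) and Aco1 (0.03). Me3, the mitochondrial NADP-dependent malic enzyme, had 15.6 to 21.4 CPM in Tnnt2low and 22.8 to 26.8 CPM in Tnnt2high libraries, without overlap and without a call (adjusted p = 0.182, edgeR).

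The 9 called genes are protein-coding genes spread over 7 chromosomes of mm10 (gene models of GENCODE vM21). Mpc2 lies at chr1:165460637-165481214 on the plus strand and Fh1 at chr1:175600374-175625635 on the minus strand. Idh3b lies at chr2:130279309-130284547 on the minus strand, where it overlaps Nop56 on the other strand, and Mdh2 at chr5:135778480-135790398 on the plus strand. Suclg1 lies at chr6:73248382-73276911 on the plus strand and Idh2 at chr7:80094846-80115392 on the minus strand. Mdh1 (chr11:21556787-21572367) and Slc25a11 (chr11:70644196-70647479) are both on the minus strand of chromosome 11, and Idh3g lies at chrX:73778963-73786897 on the minus strand. Their counts were made by the authors on the UCSC annotation of mm10, not on these models. All exons of a gene were counted together, so the counts cannot be assigned to single exons or isoforms.

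All 9 called genes were lower in Tnnt2low cells within each Glut1 transgenic heart, which their lack of overlap between the populations had already fixed. Their median difference was -0.87, -0.52, -0.38 and -0.48 on the log2 scale for replicates 1 to 4, and over all 32 genes it was -0.43, -0.30, -0.13 and -0.26. The first heart thus had the widest gap for each called gene. With heart as a term in the fit the same 9 genes were called. With any of the 12 libraries left out in turn 7 of the 9 stayed called in all of these fits (Fh1, Idh3b, Idh3g, Mdh1, Mdh2, Mpc2 and Suclg1), while Idh2 and Slc25a11 did not. The number of calls over all tested genes fell from 2052 to as low as 1237 when a library was left out, the lowest without Tnnt2high replicate 1.

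**Figure D3:**
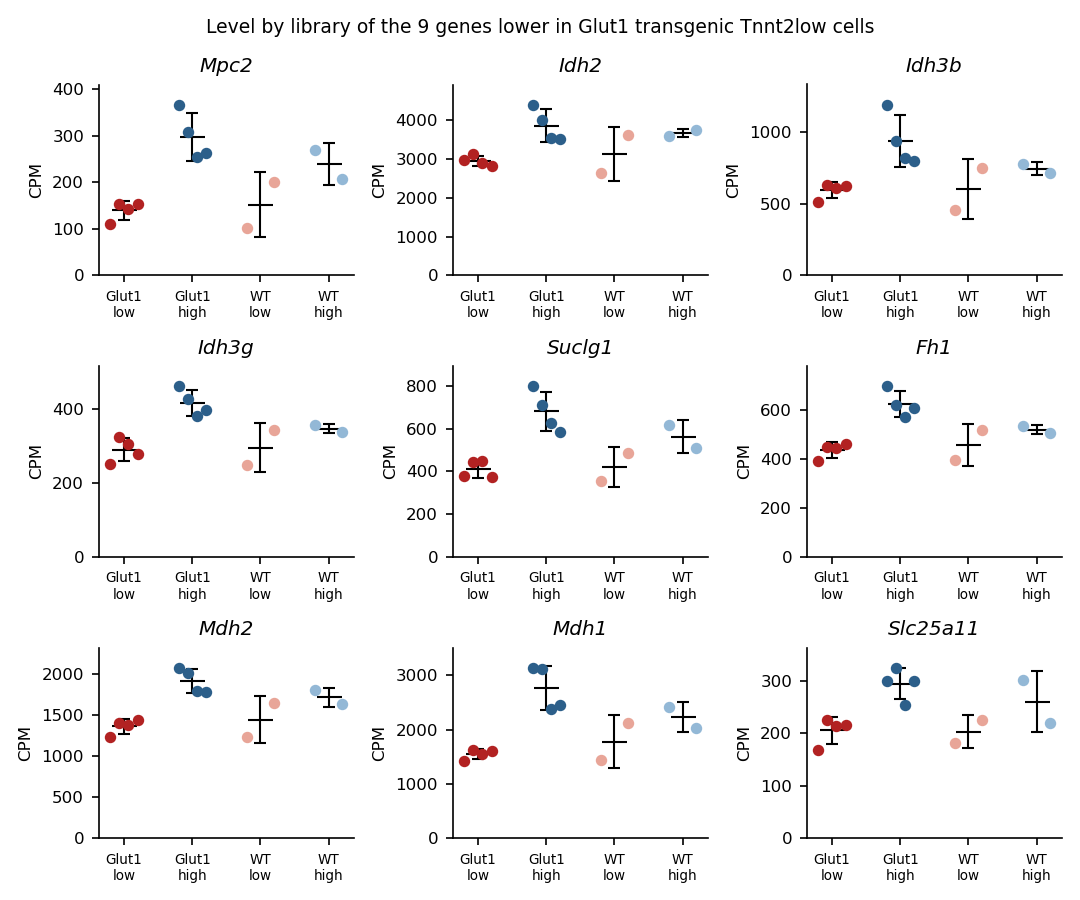
CPM of the 9 genes called lower in Glut1 transgenic Tnnt2low cells, 1 point per library, with the mean and SD of each of the 4 groups, each panel starting at 0. In each panel the 4 Glut1 transgenic Tnnt2low points lie below the 4 Tnnt2high points, and the WT Tnnt2low points are spread, as for Mdh1 at 1435 and 2121 CPM.

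Exon length moved with these fold changes across the whole transcriptome. The 9 called genes had 1025 to 2636 bases of exon (median 1616), the 23 others of the list 1470 to 6351 bases (median 2848), and all tested genes a median of 3416 bases. Among all tested genes of up to 1500 bases 33.0% were called lower in Glut1 transgenic Tnnt2low cells and 0.126% higher, whereas above 4000 bases 1.70% were lower and 18.9% higher. The genes of the list have to be read against genes of their own length. Up to 1500 bases 3 of 4 were lower, with a median log2 fold change of -0.51 beside -0.65 for all tested genes of that length. From 1500 to 2500 bases 5 of 10 were lower beside 12.3% of all, with medians of -0.49 and -0.27. From 2500 to 4000 bases 1 of 13 was lower beside 3.50% of all, with medians of -0.03 and -0.01. Above 4000 bases 0 of 5 were lower, with medians of -0.31 and 0.31. The shortest genes of the list therefore lay no further below 0 than other short genes, and the 5 longest, Dlat, Pcx, Ogdh, Me3 and Slc25a12, had a median below that of other long genes.

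When heart was a term of the fit and exon length and GC content were offset per library, 4 of the 32 genes were lower (12.5%, beside 2.41% of all tested genes) and 0 higher. Mdh1 (-0.62 ± 0.10, SE, adjusted p = 0.0099, edgeR), Fh1 (-0.42 ± 0.10, SE, adjusted p = 0.0339, edgeR) and Suclg1 (-0.36 ± 0.09, SE, adjusted p = 0.048, edgeR) were called in both fits. Slc25a12, the longest gene of the list, was not called by edgeR without the offset and had -0.56 ± 0.10 (SE, adjusted p = 0.014, edgeR). Mpc2 had -0.53 ± 0.15 (SE, adjusted p = 0.0581, edgeR) and lost its call. Idh3b at -0.30, Slc25a11 at -0.22, Idh2 at -0.09, Mdh2 at -0.09 and Idh3g at -0.08 lost theirs as well, and the median of the 32 genes was -0.11. Whether length, the reads outside exons or the population itself set these differences was not tested.

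**Figure D4:**
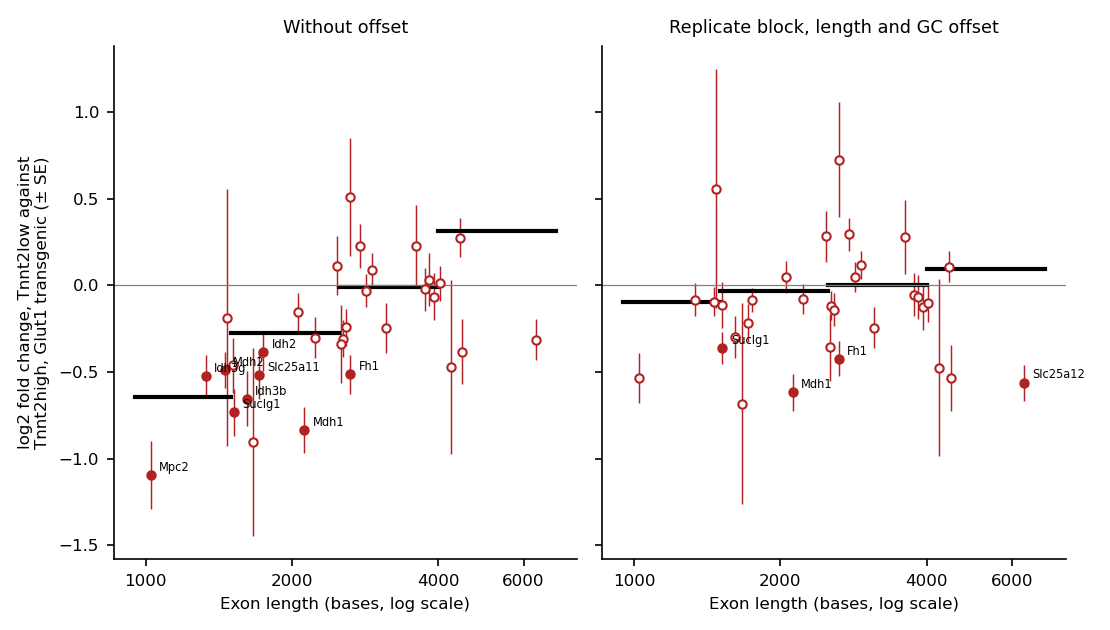
Log2 fold change of Tnnt2low against Tnnt2high cells in Glut1 transgenic hearts, with its standard error, against exon length (log axis) for the 32 genes, without an offset (left) and with heart as a term and both length and GC content offset (right). Filled points had an adjusted p under 0.05, and black bars give the median of all tested genes in each length range, from -0.65 in the shortest to 0.31 in the longest on the left and from -0.09 to 0.10 on the right.

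In WT hearts 0 of the 32 genes were called, as were 0% of all tested genes (edgeR). At an unadjusted p under 0.05 there were 2, Mpc2 and Suclg1, both lower in Tnnt2low cells, while 1.91% of all tested genes were lower by that rule. DESeq2 also called 0. With the pairs as a term and the length and GC offset, Mpc2 had -0.49 ± 0.21 (SE, unadjusted p = 0.0354, edgeR). Suclg1 then had -0.23 ± 0.13 (SE, unadjusted p = 0.106, edgeR). Mpc2 had 102 and 201 CPM in Tnnt2low and 270 and 207 CPM in Tnnt2high cells, a log2 fold change of -0.66 ± 0.28 (SE). Suclg1 had 353 and 485 CPM against 618 and 508 CPM, a log2 fold change of -0.43 ± 0.19 (SE). Both genes were separated widely in the first pair and narrowly in the second. Without overlap in WT were 8 of the 32 genes lower and 3 higher, beside 1825 lower and 1879 higher of 12252 tested genes. Slc25a11 (181 and 225 CPM against 302 and 219) and Mdh1 (1435 and 2121 CPM against 2421 and 2031) overlapped, at log2 fold changes of -0.36 ± 0.20 and -0.32 ± 0.19 (SE). These values rested on single libraries. Without WT Tnnt2low replicate 1 the log2 fold change was -0.25 for Mpc2, -0.21 for Suclg1 and -0.06 for Mdh1, and without replicate 2 it was -1.23, -0.67 and -0.64. That of Slc25a11 was -0.11 without WT Tnnt2high replicate 1 and -0.56 without replicate 2. Over the 32 genes 26 fold changes were negative, with a median of -0.18.

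The WT pairs differed from each other in this. In the first pair 27 of the 32 genes were lower in Tnnt2low cells with a median log2 difference of -0.33, and all 9 genes called in Glut1 transgenic hearts were lower. In the second pair 13 of the 32 were lower with a median of 0.01, and 3 of the 9 were lower. Without WT Tnnt2low replicate 1 the median of the 32 fitted fold changes in WT was -0.04. With 2 libraries in a group, which may share a heart, these values describe the pairs and do not settle a difference in WT.

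The difference between the genotypes in the Tnnt2low against Tnnt2high fold change was tested directly. It was called for 0 of the 32 genes and for 0% of all tested genes (edgeR), and DESeq2 called 0 of the 32 as well. At an unadjusted p under 0.05 there was 1, Mdh1, where the log2 fold change in Glut1 transgenic hearts less that in WT hearts was -0.51 ± 0.23 (SE, unadjusted p = 0.0412, edgeR). By that rule 4.52% of all tested genes differed in either direction. Without WT Tnnt2low replicate 1 the difference for Mdh1 was -0.77, and without replicate 2 it was -0.20. Next came Slc25a1 (-1.82 ± 0.95, SE, from 4 reads upward), Fh1 (-0.33 ± 0.19, SE) and Ogdh (0.32 ± 0.19, SE). With a library left out Slc25a1 ranged from -3.16 (without WT Tnnt2high replicate 2) to -1.19 (without replicate 1), Fh1 from -0.52 (without WT Tnnt2low replicate 1) to -0.11 (without replicate 2) and Ogdh from 0.24 to 0.40. The calls in Glut1 transgenic hearts therefore do not show that WT hearts lack the difference.

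Glut1 transgenic against WT asks what the added glucose transporter changes within a population. In Tnnt2low cells 0 of the 32 genes were called and 0.00816% of all tested genes, which is 1 gene and no member of the list (edgeR). The count at an unadjusted p under 0.05 was 0 too, as was that of DESeq2. The median log2 fold change was -0.03. The smallest p belonged to Pcx, at 3.45 to 9.56 CPM in Glut1 transgenic and 8.97 and 13.4 CPM in WT libraries (-0.98 ± 0.58, SE), which ranged from -1.37 without Glut1 transgenic Tnnt2low replicate 1 to -0.67 without WT Tnnt2low replicate 1. Mdh1 (-0.20 ± 0.16, SE), Me1 (0.34 ± 0.30, SE) and Aco1 (-0.20 ± 0.18, SE) followed. Me1, which yields cytosolic NADPH and pyruvate from malate, had 44.1 to 54.2 CPM against 39.9 and 36.8 CPM and did not overlap. It was the only member without overlap, while of 12252 tested genes 660 were higher and 737 lower without overlap. Without the Glut1 transgenic hearts of replicates 2 and 4, in which Xist had 0 to 4.65 CPM while all WT libraries had 199 to 504 CPM, the count of calls stayed 0 in both populations. Ddx3y of the Y chromosome had 56.4 to 65.2 CPM in those hearts and 0 CPM in all WT libraries. By these sex-linked genes, sex was unevenly spread over the genotypes. Its part was not tested, since a count of 0 with fewer libraries cannot decide it. In Idh2 the WT libraries, at 2628 and 3619 CPM, lay on either side of the Glut1 transgenic ones at 2816 to 3120 CPM.

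In Tnnt2high cells the same comparison called 0 of the 32 genes and 0% of all tested genes (edgeR), and DESeq2 called 0 of the 32. None had an unadjusted p under 0.05, and the median log2 fold change was 0.03. Idh1, the cytosolic isocitrate dehydrogenase, had the smallest p at 39.2 to 58.7 CPM in Glut1 transgenic and 57.9 and 73.5 CPM in WT libraries (-0.42 ± 0.20, SE). Fh1 had 574 to 698 CPM against 507 and 534 CPM (0.26 ± 0.14, SE) and did not overlap. It was 1 of 5 members without overlap, with Idh3b, Idh3g, Slc25a1 and Slc25a12, all higher in Glut1 transgenic libraries. Of 12252 tested genes 723 were higher and 750 lower without overlap. Mdh1 (0.31 ± 0.16, SE) and Slc25a1 (1.35 ± 0.71, SE) were the next. Without WT Tnnt2high replicate 1 the log2 fold change was -0.24 for Idh1, 0.44 for Mdh1 and 0.72 for Slc25a1, and without replicate 2 it was -0.57, 0.20 and 2.69. Both genotype comparisons share their libraries with the comparisons of populations, so their values are not independent of those above.

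Ratios of 10 pairs of related genes within a library do not depend on the scaling between libraries. They were compared between the populations of Glut1 transgenic hearts by exact permutation tests of 4 against 4 libraries, two-sided, whose smallest possible p is 0.0286. The ratio of Mdh1 to Mdh2, per kilobase of exon, was 0.792, 0.792, 0.772 and 0.759 in Tnnt2low and 1.04, 1.06, 0.905 and 0.942 in Tnnt2high libraries. All Tnnt2low ratios lay below all Tnnt2high ratios (difference of -0.34 on the log2 scale, exact permutation p = 0.0286, adjusted over the 10 ratios 0.0952). In WT it was 0.794 and 0.884 against 0.922 and 0.851. Idh3a to Idh3g was higher in Tnnt2low libraries, at 1.34 to 1.56 against 1.05 to 1.33, by 0.28 on the log2 scale with the same exact p and adjusted p. Ratios take no account of the trend with length and GC content. With block and offset the fitted fold changes were -0.14 ± 0.10 for Idh3a and -0.08 ± 0.10 for Idh3g (SE), which lay within their errors of each other. Mdh1 at -0.62 ± 0.10 and Mdh2 at -0.09 ± 0.08 (SE) kept their order. Me3 to Me2 was lower, at 0.978 to 1.22 against 1.40 to 3.53, with a log2 difference of -1.03, the same exact p and adjusted p, and it rested on few Me2 reads. None of the 10 ratios passed after adjustment. Mdh1 to Mdh2, Idh3a to Idh3g and Me3 to Me2 were already at the smallest possible p. Full separation of so few ratios did not pass the adjustment over 10, and no conclusion follows from the lack of calls.

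The other ratios overlapped between the populations. Sucla2 to Suclg2 was 8.88 to 10.5 in Tnnt2low and 9.81 to 15.1 in Tnnt2high libraries, so that the ATP-forming subunit prevailed in all 12 libraries. Slc25a12 to Slc25a13 stayed between 0.924 and 1.30, and Pdha1 to Dlat between 2.70 and 3.43, over all 12 libraries. Idh1 to Idh2 ran from 0.00687 to 0.0155. Got1 to Got2 was 0.474 to 0.559 in 11 libraries and 1.53 in Glut1 transgenic Tnnt2low replicate 4, where Got2 was low.

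**Figure D5:**
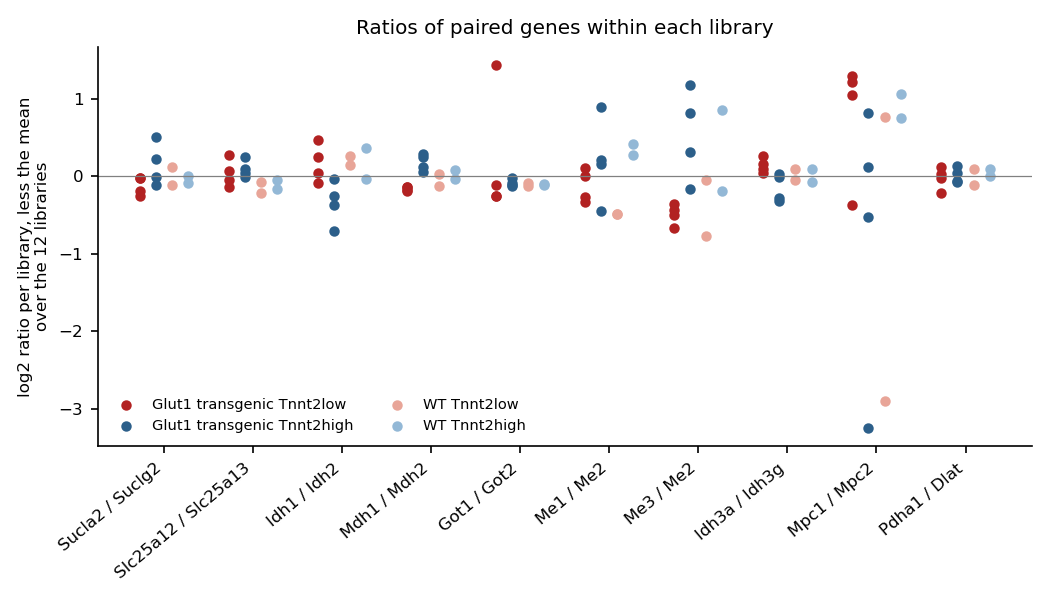
Log2 ratio of paired genes within each library, less the mean of that ratio over the 12 libraries, by group. Mdh1 to Mdh2, Me3 to Me2 and Idh3a to Idh3g separate the Glut1 transgenic Tnnt2low from the Tnnt2high libraries without overlap (adjusted p 0.0952 each), Mpc1 to Mpc2 scatters most, and 1 point stands apart in Got1 to Got2.

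Other genes of the pathway, 35 in all and 32 of them tested, gave the surroundings of the list. In Glut1 transgenic hearts 7 were lower and 3 higher in Tnnt2low cells, beside 8.33% and 8.42% of all tested genes. The 3 higher genes were Gpd2, Pdk1 and Pdpr. In the other comparisons 0 were called. Sdhd and Sdhb, subunits of succinate dehydrogenase, fell by 0.83 and 0.78 on the log2 scale (adjusted p = 0.0020 and 0.0034, edgeR). Ldha and Ldhb, the lactate dehydrogenase subunits, fell by 0.53 and 0.67 (adjusted p = 0.0057 and 0.0059, edgeR). Heart as a term together with the length and GC offset left 1 of these calls, a fall of Sdhc.

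Promoters were searched for 7 short motifs in both strands, from 250 bases before to 50 after each start site in RefSeq (GRCm38.p6), which held 30 of the 32 genes. A gene counted as matched when any of its windows held the motif. The element of the estrogen-related receptors, known for their part in mitochondrial genes of the heart, was searched as TCAAGGTCA. It was found in 0 of the 30 genes, in 0.466% of all genes and in 0.314% of the tested genes with a promoter. Its looser form TNAAGGTCA, which includes the stricter one, was found in 0 of 30, 1.43% and 0.889%. The nuclear respiratory factor 1 core CGCATGCGC matched in 1 (Ogdh) beside 1.95% of all and 4.35% of tested genes, and CCGGAAGTG of GABPA in 1 (Dlst) beside 2.25% and 5.09%. CACGTG matched in 4 (Ogdh, Pcx, Slc25a1 and Slc25a13) beside 8.09% and 11.98%, TGACGTCA in 2 (Mdh2 and Ogdh) beside 2.03% and 3.71%, and AAGATGGCG of YY1 in 1 (Idh3g) beside 1.64% and 3.74%. These are matches of letters, not sites shown to be bound, and most called genes held none of them. The matches in called genes and the TGACGTCA match in Ogdh, which was not called, are printed 5′ to 3′ on the gene's strand with the motif in capitals. The Mdh2 match, at chr5:135778512-135778539, lies in the first exon of the longer gene model of GENCODE vM21, before its coding part. The other matches, of Idh3g at chrX:73787009-73787037 on the minus strand and of Ogdh at chr11:6291536-6291563, lie before the start of their gene models.
Mdh2: gagagaatcgTGACGTCAggcctcgctc
Idh3g: tcccctccccAAGATGGCGgaacagtgct
Ogdh: cccaattctgTGACGTCAcgtcacgccc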

How the data were processed

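Cells were sorted from P1 hearts and RNA-seq was performed on 12 libraries with single-end reads of 50 bases. The deposited files hold unnormalised counts, 1 file per library. The authors trimmed at a Phred score of 20 after FastQC and mapped with HISAT2 at default settings to mm10. They counted with HTSeq over the exon union of each gene in the UCSC annotation of mm10. The sources used here give neither versions nor the use of strand. The 5 totals that name no gene (reads outside exons 28.8% to 46.5% of records, several alignments 28.2% to 40.9%, ambiguous 0.242% to 0.581%) stayed out of library sizes and tests. Reads with several alignments were not counted, which lowers genes with near copies.

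Counts were tested with edgeR 4.0.16 in R 4.3.3 (TMM, filterByExpr, quasi-likelihood test, 2-sided). All 12 libraries entered a fit of 4 groups, with Benjamini-Hochberg adjustment over 12252 genes and a threshold of 0.05. The biological coefficient of variation was 0.314, and at depths of 4065306 to 9815069 reads the precision was set by the spread between replicates more than by counting (chi-square per gene of 13.4 to 26.5 over 14 replicate pairs, where 1 is counting noise). DESeq2 1.42.0 and limma 3.58.1 (voom) were alternatives, with other scalings, no filter, robust fits, thinned depth, each library left out, heart as a block, and a loess offset for exon length and GC content (span 0.3, 12191 genes). The methods of the study name DESeq2 at an FDR of 0.05. Fits were also run on simulated counts with known fold changes. These had the same dispersion for all genes, no heart effect and no trend with exon length or GC content, so the simulation does not cover these features. CPM used TMM-scaled library sizes, and within-heart log2 values had a prior count of 2.

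Libraries of a Glut1 transgenic heart are pairs by the heart named in the labels, and their deviations from the group means correlated at 0.226, 0.131, 0.118 and 0.107. The WT numbers gave 0.271, a single value since 2 libraries deviate as mirror images. WT replicates may share a heart, so p-values then measure only the spread between these libraries. Exon length, GC content, coordinates and 30-base words shared between transcripts came from GENCODE vM21 (98.5% of genes matched by symbol), in place of words across a genome, which was not used here. The counts were made on another annotation, so the exon lengths behind RPKM and the offset may differ from the exons counted.

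The members and the lists of other genes and markers were chosen with earlier results of these data known. Statistics are given per comparison for called genes, at most 8 in each direction by p, or for the 4 smallest p where none was called, and for at most 4 other genes of the pathway. Values of further genes of the list are given for completeness. Idh2, the ninth called gene, is given without an error, and Sdhc, Gpd2, Pdk1 and Pdpr were named after their values were seen.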

Additional observations from a re-analysis of the deposited data

Results flagged for a closer look

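Among the 32 genes and their sum, examined in both groups of 4 Glut1 transgenic libraries, 4 values stood apart from the other 3 libraries of their group, all of them in Tnnt2low cells. Over the 66 groups examined, chance alone flags about 1 in 20. Got2 had 323 CPM in Glut1 transgenic Tnnt2low replicate 4, where the others had 801 to 920 CPM. Of its 30-base words 27.5% occur in other transcripts. Pdhx had 174 CPM in the same library, where the others had 141 to 144 CPM. Aco1 had 40.1 CPM in Tnnt2low replicate 3, where the others had 51.2 to 51.6 CPM. Idh3b had 514 CPM in Tnnt2low replicate 1, where the others had 611 to 631 CPM. Of these genes only Idh3b was called in Glut1 transgenic hearts, and it stayed called in each of the 12 fits that left out a library.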

How the results depend on the processing

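The 9 calls in Glut1 transgenic hearts ranged from 7 to 11 with a library left out and were 9 with the replicate block by heart (2337 calls over all genes beside 2052), 12 with DESeq2 and 4 with the block and the length and GC offset, which left 535 calls over all genes. The median of the 32 genes in Glut1 transgenic hearts was -0.29 with the block and -0.11 with block and offset, and with a library left out it was -0.33 to -0.25. The smallest number of calls over all genes with a library left out was 1237. Without the filter on low counts, and with the robust fit, edgeR called 10 members each, Pdhb being the addition. No member was called in the other comparisons under any alternative run.

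Medians in the comparisons that use WT libraries turned on single libraries. With a library left out, the median in WT hearts was -0.28 to -0.041. The Glut1 transgenic against WT median in Tnnt2low cells was -0.24 without WT Tnnt2low replicate 1 and 0.11 without replicate 2, and for the difference between genotypes the range was -0.25 to 0.011. In Tnnt2low cells the genotype difference of Mdh1 turned to 0.11 without WT Tnnt2low replicate 2, in a range from -0.46, and that of Aco1 to 0.027 without replicate 1, in a range from -0.40. The cause was not tested. The replicate block changed no call among the 32 genes. Alternative values of single genes were counted only for the genes given with full statistics, which leaves out Idh2 and its lost calls. Of these values, 474 kept direction and side of the threshold, 8 lost the call and 2 reversed. Many of the 474 belong to comparisons in which no member was called at all. The ratios gave 0 calls with 0.5 counts added and with a library left out, and the sign-flip test within the 4 hearts also gave 0, where its smallest p of 0.125 could not pass. With 0.5 counts added the fully separated ratios again ended at an adjusted p of 0.0952 (exact permutation test), being too few at the smallest p to pass. Low counts of Slc25a1, Pcx and Me2 limit what can be said of them.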
